A study of Mus musculus with 8 samples.

Results

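The 42 genes described here act in mitosis, the division of the duplicated chromosomes between the daughter cells. They were chosen by name, and all 42 were among the 14166 genes counted in nuclei of the dorsal telencephalon, the embryonic tissue that gives rise to the cerebral cortex. By role they comprise 8 cyclins and mitotic kinases, 9 kinetochore, centromere and spindle checkpoint genes, 11 spindle motors and microtubule proteins, 7 chromosome structure genes and 7 cytokinesis genes. RNA of single nuclei was sequenced from 4 wildtype and 4 knockout (Pantr2-/-) samples of E15.5 embryos, all of the strain C57BL/6J. Both groups were flash frozen, taken through the same nuclei isolation and given no treatment that the labels name. How the Pantr2 allele was disrupted, and whether a sample is 1 embryo or a pool, is not given in the sources used here, so p-values measure only the spread between these samples. The counts of Pantr2 itself, a long noncoding RNA gene, were not analysed here.

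Each unique molecular identifier (UMI) stands for 1 captured RNA molecule. The 67319 nuclei (33781 wildtype, 33538 knockout) came as 7280 to 10921 nuclei and 20446698 to 34083796 UMIs per sample, and 225115 UMIs were from the 42 genes (0.0791% to 0.139% per sample). The cell tables give 1 library date for all samples, and 510 barcode sequences occurred in more than 1 sample, in 1023 nuclei. Levels are given in CPM, the UMIs of a gene scaled to a fixed total over the nuclei compared.

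Entry into mitosis is driven by the kinase Cdk1 bound to A- and B-type cyclins, with the Aurora and Polo kinases acting beside it. Condensins and topoisomerase II compact the chromosomes, kinetochores built on centromeres attach them to spindle microtubules, the spindle checkpoint delays their separation until attachment is complete, and the cytokinesis proteins then cut the cell apart. In the embryonic cortex these divisions take place in apical progenitors, which line the ventricle and divide at its surface, and in intermediate progenitors further out, whereas the neurons they produce no longer divide. Most mitotic genes are transcribed late in the cycle, and 2 short promoter elements are known for this timing, the cell cycle genes homology region (CHR), bound by the DREAM and MuvB complexes, and the CCAAT box, bound by NF-Y.

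Promoter sequence was examined because the 42 genes were high in the same nuclei. RefSeq promoter windows (GRCm38.p6, 250 bases before to 50 after a gene's start) were matched for 38 of the 42 genes, 3 of them with more than 1 start. A CHR element, searched as TTTGAA or TTCGAA on both strands, was present for 32 of the 38 genes (84.2%) and for 16.8% of the 10756 genes of the count table with a window. A CCAAT box on either strand was present for 28 (73.7%) beside 42.9%, and both elements for 25 (65.8%) beside 7.2%. The 6 genes with a window and no CHR element were Birc5, Ccnb1, Cenpe, Gtse1, Nuf2 and Nusap1. A CHR element within 50 bases of the start was found for 27 genes (71.1%), against 4.56% of the genes of the count table. This span was set after the matches were seen. Of 94 other mitotic genes with a window, 46.8% had a CHR element, 58.5% a CCAAT box and 31.9% both. For 36.2% of them a CHR element lay within 50 bases of the start. Each share lay between those of the 42 genes and of the count table, so a raised share was not particular to the 42. The 7 windows below show at least 1 gene of each role and include the called genes that have an entry. Each runs from 120 bases before the start to the first 30 bases of the transcript, 5′ to 3′ on the gene's strand, with CHR elements and CCAAT boxes in capitals.

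Cdk1, chr10:69352883-69353032, strand -: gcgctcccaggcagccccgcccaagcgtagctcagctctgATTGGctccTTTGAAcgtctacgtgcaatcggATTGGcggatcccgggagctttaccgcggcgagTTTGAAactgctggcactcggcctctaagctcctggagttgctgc
Ccnb2, chr9:70421525-70421674, strand -: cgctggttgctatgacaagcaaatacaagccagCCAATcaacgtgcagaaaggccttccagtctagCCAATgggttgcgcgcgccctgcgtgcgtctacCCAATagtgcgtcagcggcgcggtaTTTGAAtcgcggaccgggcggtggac
Cenpf, chr1:189688057-189688206, strand -: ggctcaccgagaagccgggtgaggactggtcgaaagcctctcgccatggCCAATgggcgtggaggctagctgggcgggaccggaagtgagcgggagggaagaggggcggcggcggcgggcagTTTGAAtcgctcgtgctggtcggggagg
Cenpe, chr3:135212443-135212592, strand +: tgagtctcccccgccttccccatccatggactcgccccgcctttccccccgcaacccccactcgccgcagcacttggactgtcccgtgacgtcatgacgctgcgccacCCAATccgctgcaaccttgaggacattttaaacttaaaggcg
Kif4, chrX:100625945-100626094, strand +: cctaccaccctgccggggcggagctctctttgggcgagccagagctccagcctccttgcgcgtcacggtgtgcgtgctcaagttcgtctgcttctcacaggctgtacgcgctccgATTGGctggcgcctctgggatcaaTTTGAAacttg
Top2a, chr11:99024160-99024309, strand -: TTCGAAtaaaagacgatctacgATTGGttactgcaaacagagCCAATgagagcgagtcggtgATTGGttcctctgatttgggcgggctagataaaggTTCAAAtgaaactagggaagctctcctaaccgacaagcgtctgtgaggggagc
Anln, chr9:22389177-22389326, strand -: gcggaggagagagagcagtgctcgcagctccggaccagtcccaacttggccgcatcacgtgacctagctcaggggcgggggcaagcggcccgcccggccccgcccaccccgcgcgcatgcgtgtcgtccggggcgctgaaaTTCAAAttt

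Cdk1, Ccnb2, Cenpf and Kif4 each carried at least 1 CHR element beside 1 or more CCAAT boxes in this stretch, and Top2a carried 2 CHR elements beside 3 CCAAT boxes. Anln carried a CHR element with no CCAAT box, and Cenpe the reverse. A match is a description of the letters and does not show that a factor binds there.

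Most UMIs of the 42 genes lay in 1 of the 7 deposited clusters. Cluster 4 had 11 of 12 apical progenitor markers at their highest level (among them Pax6, Vim and Slc1a3) and is called apical progenitor-like, while cluster 5 had 6 of 6 intermediate progenitor markers at their highest level (Eomes and Neurog2 among them) and is called intermediate progenitor-like. Cluster 5 also had 2 of 7 upper-layer neuron and 3 of 5 Cajal-Retzius neuron markers at their highest level, so it may hold neurons as well. Clusters 1 (upper-layer-like), 2 and 3 (deep-layer-like) had neuronal markers, and clusters 6 and 7 stayed unnamed. Cluster 4 held 16.3% of the nuclei and 69.95% of the UMIs from the 42 genes, and each of the 42 had more UMIs there than in any other cluster. Since the clusters were made from the same counts, these levels are a description with no test.

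The summed level in cluster 4 was 4552, 5350, 4478 and 4783 CPM in wildtype samples 1 to 4 and 3705, 5097, 4911 and 4041 CPM in knockout samples 1 to 4. Every sample of cluster 4 was therefore above every sample of the other clusters, and the genotypes overlapped within it. Cluster 5 came next with 491 CPM ± 35.0 (SD, n = 8), followed by cluster 1 with 462 ± 35.7, cluster 2 with 392 ± 36.2, cluster 6 with 381 ± 39.1, cluster 7 with 372 ± 38.1 and cluster 3 with 369 ± 38.4. The ranges of clusters 5 and 1 overlapped, as did those of clusters 2, 6, 7 and 3. Within samples, cluster 5 was above cluster 1 in 7 of 8 and cluster 2 above cluster 3 in 8 of 8. Within a sample, cluster 4 was 9.43 ± 1.17 (SD, n = 8) times the next highest cluster.

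**Figure D1:**
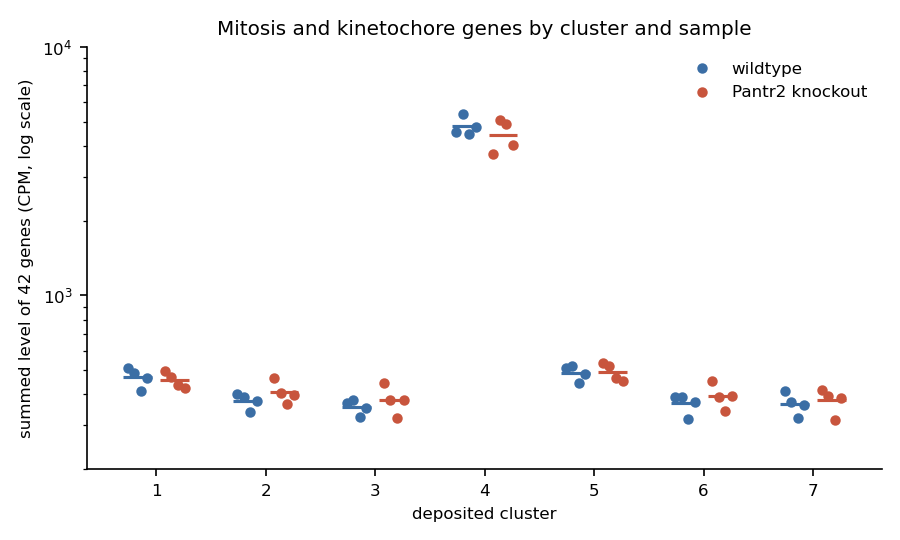
Summed level of the 42 genes (CPM, log scale) in each deposited cluster, 1 point per sample and a line at the mean of each genotype. Cluster 4 lies between 3705 and 5350 CPM in the 8 samples, and no sample of another cluster exceeds 537 CPM.

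To count the nuclei that carried the genes at equal depth, 1400 UMIs were drawn from every nucleus, and none was shallower. At this depth 51.8% ± 4.36 of wildtype and 52.5% ± 6.81 of knockout cluster 4 nuclei held at least 5 UMIs of the 42 genes (SD, n = 4 each), and unthinned the shares were 63.6% ± 5.09 and 67.4% ± 3.38. The same thinned share was 0.109% ± 0.127 (SD, n = 8) in cluster 1, whose neurons no longer divide, at a median of 2426 UMIs per nucleus beside 2908 in cluster 4. In cluster 5, at a median of 2349 UMIs, the share was 0.143% ± 0.0970 in wildtype and 0.346% ± 0.176 in knockout. Over the 8 samples the share ran from 0% to 0.586% in cluster 5 and from 0% to 0.381% in cluster 1, ranges that overlapped.

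The share of a gene's UMIs that lay in cluster 4 went with its span, the length from its start to its end. Kif14, a kinesin of cytokinesis that spans 65.2 kb, had 92.4% of its UMIs in cluster 4, and Kif23 (91.2%), Ect2 (89.8%), Kif4 (89.8%), Ttk (89.3%) and Kif11 (89.2%) were close to it. The cyclin gene Ccna2, which spans 7.29 kb, had 33.5%, and the short genes Birc5 (34.3%), Cenpa (35.4%), Ccnb1 (48.0%) and Aurkb (51.0%) were also low. The 5 genes under 10 kb had a median of 35.4% (33.5% to 51.0%), the 28 genes of 10 to 50 kb 66.9% (39.7% to 91.2%) and the 9 genes of 50 kb or more 87.0% (67.6% to 92.4%). Spearman's rho between span and the share was 0.672 over the 42 genes, which share the same libraries and are not independent replicates. The condensin genes Smc2 (49.0 kb, 47.7%) and Ncapd2 (23.7 kb, 43.0%) lay low for their span.

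The same difference can be read as a floor outside the dividing cluster. In the 5 clusters other than 4 and 5 pooled, the short genes stood at a median of 36.3% of their own cluster 4 level and the genes of 50 kb or more at 3.09%. All 8 samples showed this order, from 26.4% to 49.0% for the short genes and from 2.46% to 5.17% for the long ones. Among the short genes, Cenpa (36.3%) and Birc5 (38.9%) share stretches of at least 100 bases, at 95% identity or more, with other counted genes. Ccna2 (38.7%) overlaps the counted gene Exosc9. Ccnb1 (21.4%) and Aurkb (19.3%) have no such counted gene. The part of this in the floor was not tested. For Ccna2 the level in cluster 1 was 5.82 CPM ± 1.51 in wildtype (SD, n = 4), and in cluster 4 it was 8.49 to 14.0. For Kif14 it was 1.40 ± 0.281 against 72.6 ± 4.18. In the nuclei of the lower part of their sample's doublet score, the summed level was 5597 CPM ± 479 in cluster 4 and 496 ± 37.7 in cluster 1 (SD, n = 8).

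**Figure D2:**
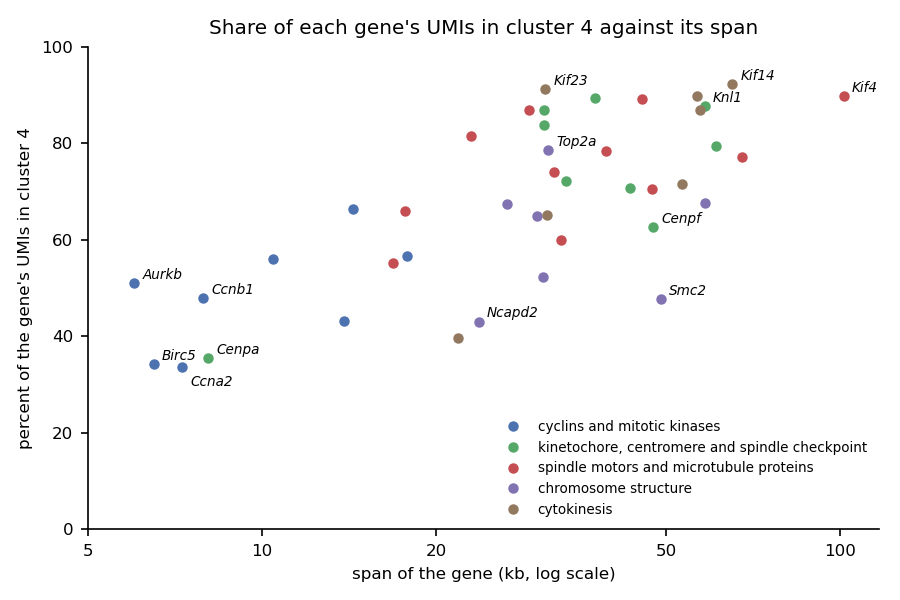
Percent of each gene's UMIs found in cluster 4 (vertical axis) against the span of the gene in kb (horizontal, log scale), 1 point per gene, coloured by role. The short genes Ccna2, Birc5 and Cenpa lie between 33.5% and 35.4%, and Kif14 and Kif23 lie above 91%.

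The deposited cell tables place each nucleus on a circle by its tricycle angle, a projection of cell cycle gene expression. The 42 genes may have entered that projection, so levels along it are a description. Knockout tests within angle classes carry the same limit, because the genes may have helped to set the classes. Angles from 1.75 π through 0 to 0.25 π are called G1/G0 here, 0.5 to 1 π S, and 1 to 1.75 π G2/M. In cluster 4 the summed level was 437 CPM ± 57.5 at G1/G0 angles, 3159 ± 345 at S angles and 8380 ± 848 at G2/M angles (SD, n = 8). Over 16 bins of the angle, the wildtype mean was 425 CPM ± 85.4 in the first bin, 1146 in the bin from 0.625 π and 5663 in the bin from 0.875 π, and was highest from 1.125 to 1.25 π at 9958 CPM. DNA replication genes, which act in S phase (33 of 36 listed were found), were highest earlier, at 3509 CPM from 0.75 to 0.875 π in wildtype.

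**Figure D3:**
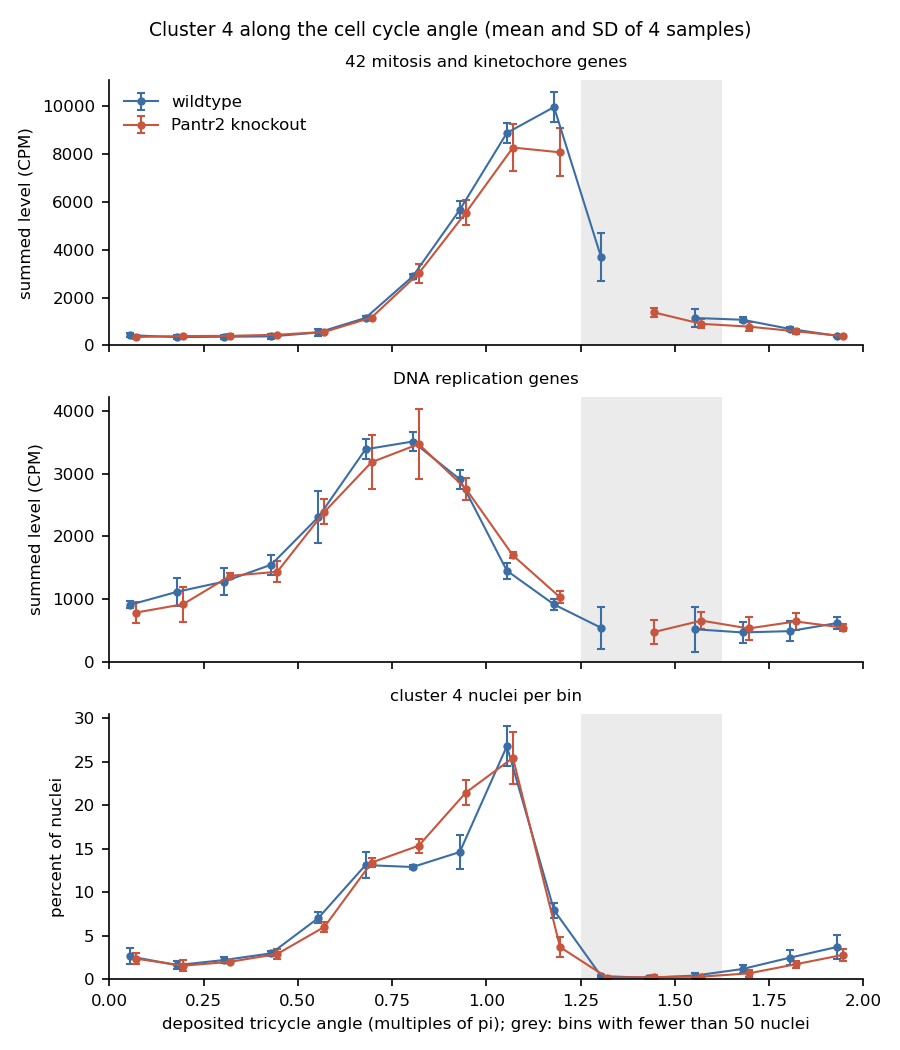
Summed level (CPM) of the 42 genes, of 33 DNA replication genes, and percent of cluster 4 nuclei, in 16 bins of the deposited angle (multiples of π), as mean and SD of 4 samples per genotype; a point is missing where a sample had no nucleus. The 42 genes are highest between 1 and 1.25 π, after the DNA replication genes, and the knockout has more nuclei from 0.875 to 1 π and fewer from 1.125 to 1.25 π.

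The highest bin lay at G2/M angles for 41 of the 42 genes, and the exception was the condensin II gene Ncapg2, highest from 0.75 to 0.875 π. The mean angle, weighted by level, had a median of 1.08 π and ran from 0.857 π (Ccna2) to 1.35 π (Cenpa). Only 30, 22 and 40 cluster 4 nuclei lay in the 3 bins from 1.25 to 1.625 π, and without these bins, an alternative chosen after seeing the data, the median was 1.05 π and the range 0.848 π (Ncapg2) to 1.23 π (Cenpa). The mean angles by role and by gene that follow leave these bins out.

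By role, the median mean angle was 0.985 π for chromosome structure genes, 1.04 π for kinetochore, centromere and checkpoint genes, 1.05 π for cytokinesis genes, and 1.06 π for both the spindle genes and the cyclins and kinases. The early end was held by condensin subunits, which compact chromosomes: Ncapg2 (0.848 π), Smc2 (0.911 π), Smc4 (0.957 π) and Ncapd2 (0.985 π). Apart from Ncapg2, their highest bin lay at G2/M angles, so the order by mean angle is not an order of highest bins. Ccna2, the S and G2 cyclin, had a mean angle of 0.857 π (0.986 π with 12 bins), but its highest bin was the one from 1 π, and the bins below 0.875 π stood at 24.1% to 51.2% of it. The late end was held by Cenpa (1.23 π), which encodes the histone variant that marks centromeres, Cenpf (1.11 π), Ccnb1 (1.10 π), Cenpe (1.10 π), Aurka (1.09 π) and Plk1 (1.08 π). Genes with and without a CHR element had median mean angles of 1.05 π and 1.07 π.

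The range from low to high angles differed widely between genes. In pooled wildtype cluster 4 nuclei, the kinetochore scaffold gene Knl1 was at 3.30 CPM at G1/G0 angles (4 UMIs) and at 358 at G2/M angles. Bub1, a checkpoint kinase, was at 2.48 CPM (3 UMIs) and 176. At the other end, Ccna2 was at 6.61 and 17.7 CPM, Birc5 at 22.3 and 99.6, Cenpa at 28.9 and 126, and the condensin gene Smc4 at 52.9 and 391. The genes with a small range include the short genes with the highest floor in the neuronal clusters.

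**Figure D4:**
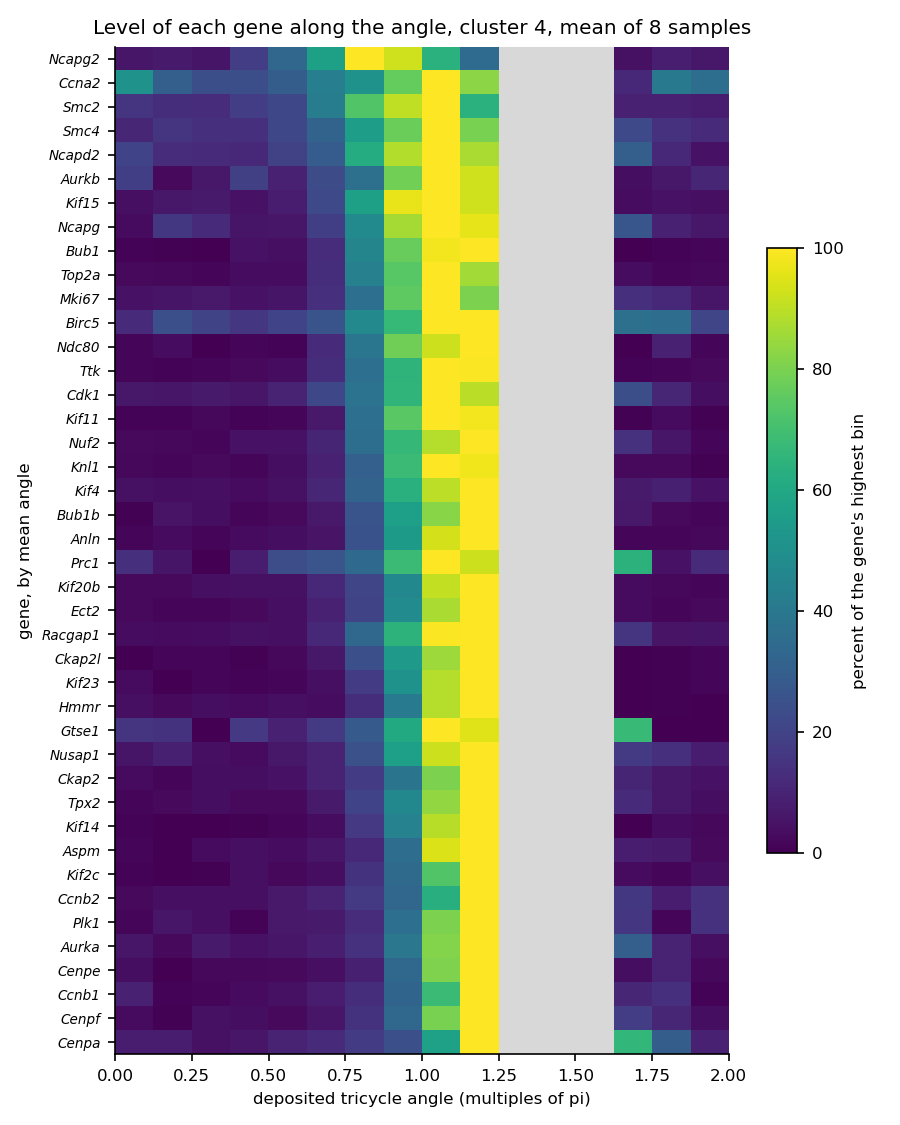
Level of each of the 42 genes (rows, ordered by mean angle) in 16 bins of the deposited angle (columns, multiples of π) in cluster 4, as percent of the gene's highest bin, mean of 8 samples; grey marks bins with fewer than 50 nuclei. Ncapg2 is highest from 0.75 to 0.875 π, and Cenpa at the bottom from 1.125 to 1.25 π.

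Cluster 5 followed the angle with a much smaller range. Its summed level was 396 CPM ± 33.9 at G1/G0 angles, 562 ± 46.0 at S angles and 971 ± 68.5 at G2/M angles (SD, n = 8). At G1/G0 angles lay 59.1% to 70.4% of cluster 5 nuclei per sample, beside 6.44% to 15.6% of cluster 4 nuclei. The nuclei of the 5 other clusters with G2/M angles stood at 788 CPM ± 59.9, below cluster 5 in each of the 8 samples. Eomes, the defining transcription factor of intermediate progenitors, was at 82.5 CPM ± 16.7 in cluster 5 and at 29.2 ± 4.48 in cluster 4. Within cluster 4 it was at 31.9 ± 5.29 at S angles and 20.1 ± 3.83 at G2/M angles (SD, n = 8).

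Among genes outside the 42, likeness was measured as the correlation with their median profile over the 16 bins in pooled wildtype cluster 4 nuclei. It was taken for 8505 genes with at least 200 UMIs there, and the bins share libraries and depth. All 16 bins were used, including those from 1.25 to 1.625 π with only 17, 7 and 22 wildtype nuclei. A ranking without these thin bins is not given, so the correlations are uncertain to that extent. The 10 most alike were Cdin1 (0.960), Ankle1 (0.956), Kifc1 (0.948), Depdc1b (0.944), Lockd (0.930), Kif20a (0.928), Espl1 (0.925), Gli3 (0.913), Ckap5 (0.911) and Depdc1a (0.907). In knockout nuclei the values for these genes ran from 0.727 (Gli3) to 0.972 (Lockd). Of the 50 most alike, 25 were on the list of 121 other mitotic genes, of which 109 were among the 8505 genes compared.

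Summed over all nuclei, the 42 genes stood together at 1259, 1121, 791 and 985 CPM in wildtype samples 1 to 4 and at 1390, 1382, 1106 and 941 CPM in knockout samples, groups that overlapped. No gene of the 42 was called by edgeR's quasi-likelihood test at an adjusted p under 0.05, with 5.26% of 13927 genes called. DESeq2 called none either, and 5 of the 42, all higher, had an unadjusted p under 0.05, beside 19.1% of all genes tested. The log2 fold change (knockout over wildtype) was positive for 41 of 42 genes with a median of 0.23, beside 50.3% of all genes tested and a median of 0.00. With the replicate number as a block, Smc2 was called higher (log2 0.22 ± 0.05 (SE), edgeR adjusted p = 0.0403, against 0.200 without the block). Cluster 4 made up 20.2%, 13.7%, 9.69% and 12.9% of wildtype nuclei and 25.5%, 19.6%, 15.2% and 13.1% of knockout nuclei, ranges that overlapped, with the knockout higher in all 4 numbered pairs. The part of this share in the result was not tested, and in a sum over all nuclei more cells of a type and more RNA per cell cannot be told apart.

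Within cluster 4 the direction was the opposite and again no gene was called, with 4.29% of 11935 genes called. DESeq2 called none, and 2 genes, both lower, had an unadjusted p under 0.05, beside 1907 of all 11935 genes tested. Of the 42 genes 8 had a positive log2 fold change, beside 51.4% of all genes tested, the median was -0.09, and all 7 cytokinesis genes were negative. Over the alternatives run, 4 to 20 of the 42 were positive, with 20 on leaving out knockout sample 1, 16 on leaving out wildtype sample 2 and 4 on leaving out knockout sample 2. The spread over samples is shown by genes that have the most UMIs of their role. Cdk1 was at 107, 117, 106 and 96.9 CPM in wildtype samples 1 to 4 and at 101, 116, 107 and 93.2 CPM in knockout samples. Top2a, topoisomerase II, was at 384, 475, 378 and 408 CPM in wildtype and 342, 465, 455 and 349 CPM in knockout. Kif11, the kinesin that pushes spindle poles apart, was at 304, 358, 307 and 319 CPM beside 255, 373, 364 and 284 CPM.

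The groups overlapped for each of these 3 genes, with knockout samples 1 and 4 below samples 2 and 3. Cenpf, a large centromere protein that loads late, was at 152, 187, 176 and 176 CPM in wildtype and 138, 170, 154 and 132 CPM in knockout, with the knockout samples mostly lower and the groups overlapping. Racgap1, a centralspindlin subunit of cytokinesis, was at 147, 169, 153 and 162 CPM in wildtype and 118, 165, 170 and 120 CPM in knockout, with the same order among the knockout samples. The log2 fold changes were -0.03 ± 0.09 for Cdk1, -0.03 ± 0.11 for Top2a, -0.01 ± 0.12 for Kif11, -0.21 ± 0.09 for Cenpf and -0.14 ± 0.12 for Racgap1 (SE).

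Smc4, a core subunit of both condensins (chromosome 3, 68912071 to 68941956 as deposited), had the lowest unadjusted p of the 42 in cluster 4 and was the only gene of the 42 whose groups did not overlap there, beside 10.2% of all genes tested. It was at 249, 259, 239 and 245 CPM in wildtype samples 1 to 4 and at 170, 229, 218 and 190 CPM in knockout samples, each knockout value under each wildtype value. The log2 fold change was -0.30 ± 0.09 (SE, edgeR adjusted p = 0.104). At G2/M angles it was at 387, 403, 373 and 385 CPM in wildtype and at 221, 323, 325 and 286 CPM in knockout. There Smc4 fell (log2 fold change -0.42 ± 0.11 (SE), edgeR adjusted p = 0.0483), the only called gene of the 42, with 2.93% of 9871 genes called and 1.91% called lower. Leaving out wildtype sample 1, 2, 3 or 4 ended the call, as did leaving out knockout sample 1 or 4, with log2 values of -0.31 to -0.44 and edgeR adjusted p of 0.0559 to 0.141; without the filter on low counts it was 0.0502. At S angles the groups overlapped, at 188 to 217 CPM in wildtype and 171 to 206 CPM in knockout.

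At G2/M angles 5 of the 42 had a positive log2 fold change, beside 49.8% of all genes tested, and the median was -0.11. Over the alternatives run 3 to 18 were positive, with medians of -0.19 to -0.02. The count was 18 on leaving out knockout sample 1, 3 for knockout sample 2 or 3, 9 for knockout sample 4, 8 for wildtype sample 1 and 9 for wildtype sample 2. Cenpf was the other gene of the 42 whose groups did not overlap, beside 8.47% of all genes tested, at 344, 386, 383 and 388 CPM in wildtype and 298, 332, 329 and 300 CPM in knockout (log2 fold change -0.25 ± 0.08 (SE), edgeR adjusted p = 0.121). Condensin members went in both directions: the log2 fold change was 0.25 for Ncapg2, 0.20 for Ncapg and 0.05 for Smc2, none called.

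At S angles the level of Cenpf was higher in the knockout. It was at 55.4, 59.9, 71.9 and 64.8 CPM in wildtype samples 1 to 4 and at 89.3, 103, 85.6 and 74.5 CPM in knockout samples. Cenpe, the kinetochore kinesin that moves chromosomes to the spindle equator, was at 52.3, 53.5, 50.1 and 64.8 CPM in wildtype and at 75.3, 81.5, 76.5 and 72.7 CPM in knockout. Neither gene's groups overlapped. In the deposited table Cenpf lies on chromosome 1 (189372803 to 189420283) and Cenpe on chromosome 3 (134918298 to 134979372), positions that are not those of GRCm38. Both rose, by a log2 fold change of 0.51 ± 0.12 for Cenpf (SE, edgeR adjusted p = 0.0339) and 0.47 ± 0.10 for Cenpe (SE, edgeR adjusted p = 0.0244), with 2.81% of 10815 genes called and 0.767% called higher. The angle that sets this class may itself rest on these genes, as for the call of Smc4 at G2/M angles.

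Of the 42 genes 38 had a positive log2 fold change at S angles, with a median of 0.22, beside 51.6% of all genes tested. An unadjusted p under 0.05 was found for 17, all higher, beside 13.4% of all genes tested. The groups did not overlap for Ccnb2, a B-type cyclin, or for the spindle genes Aspm and Hmmr either, none of them called, which makes 5 of the 42 beside 8.38% of all genes tested. The block by replicate number ended both calls, with edgeR adjusted p = 0.0548 for Cenpe and 0.0768 for Cenpf. Moving the bounds of the class inward by 0.1 π also ended both, with a log2 fold change of 0.62 for Cenpe and 0.28 for Cenpf (edgeR adjusted p = 0.0948 and 0.477). Leaving out 1 sample gave between 0 and 4 called genes: none when wildtype sample 1 or 2, or knockout sample 2 or 3, was left out, 1 for wildtype sample 3 (Cenpf) or 4 (Cenpe), and 4 for knockout sample 1 (Cenpe, Hmmr, Kif14 and Ect2). Cenpf shares stretches of at least 100 bases, at 95% identity or more, with transcripts of 14 other counted genes, so its counts are uncertain to that extent. The same holds for Birc5 (15 genes), Racgap1 (13) and Cenpa (61).

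**Figure D5:**
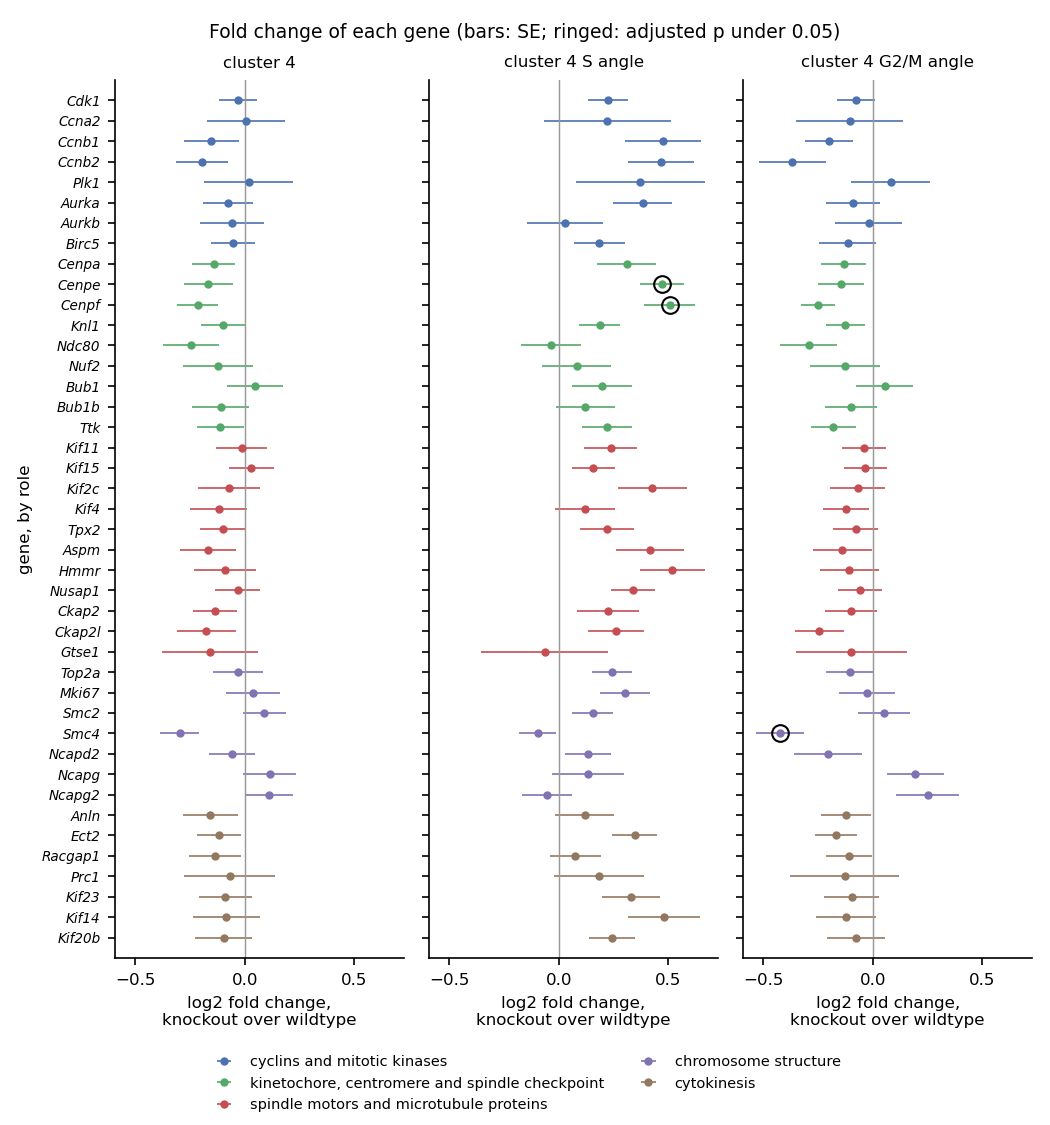
Log2 fold change (knockout over wildtype, horizontal axis) of each of the 42 genes in cluster 4 and in its nuclei at S and at G2/M angles, with SE as bars and colours for roles; rings mark an adjusted p under 0.05. Points lie mostly right of 0 at S angles, where Cenpe and Cenpf are ringed, and mostly left of 0 at G2/M angles, where Smc4 is ringed.

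The share of cluster 4 nuclei in each angle class was compared over samples. At G2/M angles lay 35.0%, 40.8%, 36.2% and 35.2% of wildtype and 29.2%, 31.5%, 31.4% and 29.9% of knockout cluster 4 nuclei, groups that did not overlap. At S angles lay 43.7%, 47.1%, 50.1% and 49.8% of wildtype and 56.1%, 57.2%, 57.3% and 54.3% of knockout nuclei, again with no overlap. An exact two-sided permutation test over the 70 arrangements of the samples gave p = 0.0286 for each, the smallest this design allows, and 0.0857 after Benjamini-Hochberg adjustment over 6 shares, so neither passed. All 4 numbered pairs were lower in the knockout at G2/M angles.

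With the bounds of the classes moved inward by 0.1 π, the difference at G2/M angles was -6.52 percentage points (exact permutation p = 0.0286, against a difference of -6.30), and at S angles 3.25 points (exact permutation p = 0.0571, against 8.56). From 0.875 to 1 π lay 14.6% of wildtype and 21.5% of knockout cluster 4 nuclei, and from 1.125 to 1.25 π 7.93% and 3.68%. The summed level of the 42 genes in the bin from 0.875 π was 5663 CPM in wildtype and 5545 in knockout, and in the bin from 1.125 π 9958 and 8066. The part of this placement in the gene differences within each class was not tested. The mean angle was lower in the knockout for 34 of 42 genes with a median difference of -0.04 π, and without the 3 thin bins for 29 of 42 with a median of -0.01 π. At G1/G0 angles only 2 of the 42 genes passed the filter on low counts, and neither was called (2.97% of 5325 genes called).

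Some of the markers used to name cluster 4 moved with genotype. The summed level of 12 apical progenitor markers in cluster 4 was 4189 to 4694 CPM in wildtype and 2824 to 3067 CPM in knockout. Ptprz1, the largest of the 12, was at 1600 CPM ± 71.7 in wildtype and 911 ± 55.9 in knockout (SD, n = 4 each). It was also the marker not highest in cluster 4, with a pooled level of 1297.5 CPM in cluster 2 and 1200.5 in cluster 4. In cluster 4, 5 of the 12 were called lower (Fabp7, Slc1a3, Mfge8, Ptprz1 and Tnc) and none higher, while Pax6, Nes and Vim were not called. The same test called 4 of them lower at S angles and 5 at G2/M angles. Of markers of other cell types, Olig1, Olig2, Pdgfrb and Pou3f2 were called lower and Fezf2, Foxp2, Lhx2 and Hbb-y higher. Intermediate progenitor markers summed to 761 to 930 CPM in wildtype and 908 to 1207 CPM in knockout, with none called. Their part in the results for the 42 genes was not tested.

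In cluster 5 no gene of the 42 was called, by edgeR or by DESeq2, among 33 that passed the filter on low counts (1.77% of 10595 genes called); 3 had an unadjusted p under 0.05, beside 9.95% of all genes tested. None was called at its G1/G0 (21 tested, 1.63% of 9450 genes called), S (10 tested, 0.949% of 6533) or G2/M angles (12 tested, 1.06% of 5265). The share of cluster 5 nuclei at G2/M angles was 10.5% to 13.5% in wildtype and 10.4% to 14.6% in knockout (exact permutation p = 0.229, 0.429 adjusted). The difference between clusters 5 and 4 in the knockout effect was tested directly and no gene of the 42 was called by edgeR or DESeq2, with 0.655% of 11908 genes called, and 4 had an unadjusted p under 0.05, beside 9.21% of all genes tested. In the fit of cluster 5 alone, Kif4, a chromosome-bound kinesin, had the lowest unadjusted p of the 42 (log2 fold change 0.90 ± 0.29 (SE), edgeR adjusted p = 0.187). Its level in cluster 5 was 5.35, 3.00, 3.36 and 6.26 CPM in wildtype and 7.76, 10.3, 10.0 and 5.30 CPM in knockout, ranges that overlapped.

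Kif4 was also the single gene of the 42 that was called in a neuronal cluster. In cluster 2 it was at 2.35, 3.03, 4.65 and 3.42 CPM in wildtype samples 1 to 4 and at 6.38, 6.85, 5.73 and 7.48 CPM in knockout samples, each knockout value above each wildtype value. The groups did not overlap there for 3 of the 42 (Cenpf, Kif4 and Ckap2l), all higher. Among all genes tested, 14.5% did not overlap and 6.69% did so with the knockout higher. The deposited position of Kif4 is X, 99669343 to 99770820. It rose by a log2 fold change of 0.98 ± 0.23 (SE, edgeR adjusted p = 0.0141), with 9.09% of 11538 genes called and 3.92% called higher. These values rest on 59 wildtype and 114 knockout UMIs. Without wildtype replicate 1 the call was lost (edgeR adjusted p = 0.0519). In cluster 4 Kif4 was at 245 CPM ± 19.8 in wildtype and 225 ± 47.2 in knockout (SD, n = 4 each), not called, so the level in cluster 2 was a small fraction of it.

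Kif4 overlaps Pdzd11, which lies on the opposite strand, and use of strand in the counting is not given in the sources used here. The same holds for Ccna2 and Exosc9, Nusap1 and Oip5, Prc1 and Rccd1, and Ncapg and Lcorl. Lcorl, no member of the 42, rose in cluster 1 (log2 0.29 ± 0.07 (SE), edgeR adjusted p = 0.0202) and cluster 2 (0.25 ± 0.07, 0.0483) and was not called over all nuclei (0.20 ± 0.06, 0.0860). In cluster 2 Pdzd11 was at 28.2 CPM ± 3.46 in wildtype and 30.5 ± 3.46 in knockout (SD, n = 4 each) and was not called. In cluster 2 nuclei of the lower part of their sample's doublet score Kif4 was at 3.96 CPM ± 1.90 and 6.51 ± 2.86, on 27 and 47 UMIs, and the groups overlapped. In cluster 1, 3, 5, 6 and 7 its log2 fold change was 0.67, 0.43, 0.90, 1.10 and 0.28, none called. Of the 39 genes of the 42 tested in cluster 2, 29 had a positive value with a median of 0.16, beside 51.2% of all genes tested.

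In the other neuronal and unnamed clusters no gene was called: 40 were tested in cluster 1 (4.84% of 11664 genes called), 39 in cluster 3 (3.36% of 11890), 30 in cluster 6 (0.789% of 10522) and 29 in cluster 7 (1.03% of 10548). DESeq2 called none there either, and 2, 5, 2 and 1 of them had an unadjusted p under 0.05, beside 16.5%, 15.3%, 9.91% and 9.68% of all genes tested. With the replicate number as a block, the condensin I gene Ncapd2 was called lower in cluster 1 (log2 -0.79 ± 0.20 (SE), edgeR adjusted p = 0.0354) and cluster 2 (-0.63 ± 0.17, 0.0365), and Aurkb, the kinase of the chromosomal passenger complex, higher in cluster 3 (0.72 ± 0.19, 0.0485). Ncapd2 in cluster 1 was at 34.8, 24.1, 30.3 and 30.8 CPM in wildtype and 7.47 to 24.4 CPM in knockout, with knockout replicate 3 the lowest and replicate 4 above the lowest wildtype sample.

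Over all nuclei and in cluster 4, Hjurp and Troap, mitotic genes outside the 42, had larger fold changes than any of the 42. Of a list of 128, 121 were counted, and over all nuclei 1 was called higher and 1 lower. Hjurp, the chaperone that loads Cenpa at centromeres, was at 69.9, 73.5, 61.6 and 68.0 CPM in wildtype and 30.2, 33.0, 24.2 and 20.2 CPM in knockout and fell by a log2 of 1.34 ± 0.13 (SE, edgeR adjusted p = 0.000476). It fell in each of the 7 clusters, from -1.10 in cluster 4 to -2.40 in cluster 2. Its wildtype level was 48.2 CPM ± 3.19 in cluster 2 and 192 ± 17.1 in cluster 4 (SD, n = 4). Troap, a spindle-associated protein, was at 36.1, 39.4, 33.8 and 40.3 CPM in wildtype cluster 4 and 75.6, 110, 101 and 83.8 CPM in knockout and rose by a log2 of 1.31 ± 0.12 (SE, edgeR adjusted p = 9.7e-05). It also rose in cluster 1 (log2 1.66) and over all nuclei (1.68).

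The other calls on this list were small. Ska3, which couples kinetochores to microtubules, fell in cluster 4 from 52.2 CPM ± 2.54 to 38.9 ± 3.37 (SD, n = 4 each; log2 -0.42 ± 0.09 (SE), edgeR adjusted p = 0.0208). At S angles of cluster 4 the spindle gene Dlgap5 rose from 21.9 CPM ± 5.71 to 34.7 ± 3.16 and the abscission gene Cep55 from 40.2 ± 2.60 to 55.1 ± 4.95 (edgeR adjusted p = 0.0469 and 0.0394). Cdc23, a subunit of the anaphase-promoting complex, fell in cluster 2 (log2 -0.34 ± 0.09 (SE), edgeR adjusted p = 0.0375). Over the 121 genes the median log2 fold change in cluster 4 was -0.02.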

How the data were processed

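The molecules counted were nuclear RNA, read with a 10x 3′ kit. The deposited matrices hold whole UMI counts per gene and nucleus, made by the authors with kallisto and bustools and the build mm10, per the submitters' processing notes; versions, filters and strand use are not given in the sources used here. Per the file headers, the deposited cell tables give a cluster, a tricycle angle and a doublet score, made by the authors with settings not given in the sources used here; the highest hybrid doublet score is 0.50. Gene positions were deposited without a build: of 14162 genes found in a GRCm38 annotation, 352 have the same start and end.

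UMIs were summed per sample and cluster or angle class (sets with at least 50 nuclei in every sample). Knockout was compared with wildtype by edgeR 4.0.16 in R 4.3.3 (quasi-likelihood test, TMM factors, filterByExpr, genotype alone), with Benjamini-Hochberg adjustment over all genes tested and a threshold of 0.05. Single-gene CPM use TMM-scaled totals; sums over genes, levels along the angle and values by doublet score use plain totals. Nuclei were thinned with a fixed seed. Shares were compared with an exact permutation test. Overlap and copies came from GENCODE M21 and blastn 2.17.0. Counts were simulated with 200 genes changed by a log2 fold of 1. The test recovered 86.0% of them in the cluster 4 fit of 11935 genes. At S angles it recovered 81.0% (10815 genes) and at G2/M angles 85.0% (9871 genes). Smaller folds were not simulated, and the mitotic genes of the main set had smaller changes in these fits. These rates therefore do not show how often changes of that size are missed.

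By rule, values in every sample were given for genes of the 42 called in any fit, 1 or 2 of each role with the most UMIs and those with the lowest p in clusters 4 and 5 where none was called. Up to 3 other mitotic genes called per direction and fit were named, with values in every sample only for Hjurp over all nuclei and Troap in cluster 4. Others named were chosen after their values were seen. The 42 genes and the lists were chosen with earlier results of these data known. Same-numbered samples of both genotypes deviated together (correlations of 0.384, 0.184, 0.184 and 0.184, each above 0.1), as did 3 pairs of unlike number (0.275 for wildtype 3 and knockout 4, 0.170 for 2 and 3, 0.113 for 1 and 2). By the rule that every same-numbered pair lie above 0.1, a fit with the replicate block was run as an alternative. The main fit kept genotype alone. Other alternatives were DESeq2 1.42.0, RLE factors, no filter, a covariate of log2 Xist level, inward angle bounds, 12 bins, nuclei of at least 2000 UMIs (for shares) and leaving out each sample. Pantr2 and Pou3f3 were not analysed here.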

Additional observations from a re-analysis of the deposited data

How the results depend on the processing

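Counts of called genes among the 42 were small and moved by single calls. With the replicate block the count was 1 over all nuclei, 1 in cluster 1, 2 in cluster 2, 1 in cluster 3 and 0 at S angles of cluster 4, and the block changed no other count. With the Xist covariate it was 1 in cluster 1 and 2 in cluster 2, and at S angles of cluster 4 Hmmr was called beside Cenpe and Cenpf (edgeR adjusted p = 0.0499 for Hmmr). At G2/M angles of cluster 4 it was 0 without the filter on low counts and 3 with inward bounds (Smc4, Ccnb1 and Cenpf), and at S angles 0 with inward bounds. Leaving out 1 sample gave 0 to 1 in cluster 1, 0 to 2 in cluster 2, 0 to 4 at S angles and 0 to 1 at G2/M angles of cluster 4. The cause was not tested. Kif4 in cluster 2 kept its call in 12 of 13 alternatives, Cenpe in 7 and Cenpf in 6 of 14 at S angles, and Smc4 in 7 of 14 at G2/M angles. None of these log2 fold changes reversed in direction. With nuclei of at least 2000 UMIs, share differences in cluster 5 changed sign. They went from -3.14 to 0.495 percentage points at G1/G0 angles and from 1.15 to -0.93 at S angles. Median log2 fold changes in cluster 5 also crossed 0 over the alternatives. They ran from -0.132 to 0.0608 at G1/G0, -0.172 to 0.348 at S and -0.0256 to 0.147 at G2/M angles. The ratio of cluster 4 to the next cluster was 11.1 in UMIs per nucleus and 10.8 in the lower part of the doublet score. In a paired sign-flip test the share at G2/M angles had an exact permutation p = 0.125 in cluster 4, the smallest that 4 pairs allow, and 0.375 in cluster 5 under the replicate block. Inward bounds for G1/G0 angles of cluster 4 and G2/M angles of cluster 5, and the block and Xist covariate for the difference between clusters 5 and 4, were not run. Low counts limit the neuronal clusters, where Kif4 rests on 59 and 114 UMIs, and cluster 4 at G1/G0 angles, where 2 genes were tested.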
